A study of Mus musculus with 192 samples.

Results

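Il6, the gene of the cytokine interleukin-6, was followed through every stimulation of a study of mouse dendritic cells. It is 1 of 23481 genes in the deposited count table and 1 of the 4720 that passed the filter on low counts. Dendritic cells were grown with GM-CSF (15 ng/mL) from bone marrow of female C57BL/6J mice that were 6 to 8 weeks old. They were plated at 100000 cells per well and exposed to ligands of pattern recognition receptors over 6 hours before RNA was taken. The 64 groups were an unstimulated control (Ctrl), 7 single ligands, their 21 pairs and their 35 triplets, each with 3 libraries. The ligands carry the names PAM, LPS (lipopolysaccharide), HMW, Zymosan (depleted, per the labels), SeV, cGAMP (3',3'-cGAMP, a cyclic dinucleotide) and CpGB. No dose of a ligand was used here. The 3 libraries of a group are not said to come from separate mice or cultures, so the p-values measure only the spread between libraries, which may be technical. That spread was estimated for each gene in 1 model of all 64 groups. The SE of a fold change therefore does not show the spread of the groups compared. In such bulk RNA, fewer cells making Il6 and less Il6 RNA per cell cannot be told apart.

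Interleukin-6 is secreted early in infection by dendritic cells and macrophages once their pattern recognition receptors are engaged. It binds the receptor chain encoded by Il6ra together with the shared chain gp130 (Il6st), which signals through JAK kinases to the transcription factor STAT3 and induces the feedback inhibitor Socs3. Transcription of Il6 is known to depend on NF-kB proteins, on C/EBP and AP-1 factors and on the coactivator encoded by Nfkbiz, and its mRNA is destabilised by the nuclease Regnase-1 (Zc3h12a) and stabilised by Arid5a.

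Il6 lies on the plus strand of chromosome 5 (GRCm38, the build named as mm10 in the submitters' processing notes), from 30013114 to 30019981, and no other gene of GENCODE M21 was annotated in the region searched around it. Its annotated transcript that begins at the same base has 5 exons. The 250 bases before the RefSeq start of the gene (GRCm38.p6, chr5:30012864-30013113, plus strand) are shown because the DNA just upstream is where the factors named above are known to act on this gene. Capitals mark the matches to the motifs searched:

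Il6 upstream: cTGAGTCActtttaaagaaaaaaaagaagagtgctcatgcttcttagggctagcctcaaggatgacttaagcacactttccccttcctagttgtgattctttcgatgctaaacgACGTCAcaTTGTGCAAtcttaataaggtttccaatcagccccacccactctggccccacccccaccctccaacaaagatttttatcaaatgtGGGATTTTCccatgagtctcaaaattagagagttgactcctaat

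5 motifs were searched on both strands, with N for any base: NF-kB (GGGANTTTC), C/EBP (TTNNGNAA), AP-1 (TGANTCA), CRE (ACGTCA) and ISRE (GAAANNGAA). The Il6 window held 1 match each to AP-1 (249 bases before the start), CRE (136 bases), C/EBP (128 bases) and NF-kB (44 bases), each distance counted from the match's first base, and these matches do not overlap. It held no ISRE match. Among 32851 promoter windows of the same length, 0.941% held the NF-kB motif, 6.47% the CRE motif, 6.75% the AP-1 motif, 36.8% the C/EBP motif and 7.13% the ISRE motif. A match is a string of letters and not evidence of binding.

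The libraries held between 46564 and 610234 UMIs (unique molecular identifiers, each standing for 1 captured molecule), and Il6 took between 7 and 1872 of them in a library. Levels are given as UMIs per 1000000 UMIs after TMM scaling (CPM), so they can be compared between groups but not between genes of different capture. The median coefficient of variation of Il6 over the 64 groups was 9.66%, and in 10 groups it passed 20%. Of 13 markers of dendritic cells and macrophages, 12 were in the file and all of these had counts, with a summed level of 13103 to 18544 CPM in every library, although Flt3 and Zbtb46 had a median of 0. Of 9 neutrophil markers, 8 were in the file, with Mpo and Elane at a median of 0 and S100a9 at a median of 326.0 CPM. Their summed level ran from 671 to 967 CPM over the groups in which Il6 was high and from 536 to 772 CPM over the others, and its part in the Il6 levels was not tested. Markers of T cells, B cells, NK cells, mast cells, erythroid cells and stroma were at or near 0, and of 3 markers of plasmacytoid dendritic cells Siglech had a median of 0, Tcf4 of 133 CPM and Bst2, which interferon also induces, of 686 CPM. The summed level of these 3 ran from 239 to 1331 CPM over the groups in which Il6 was high and from 143 to 837 CPM over the others, and its part in the Il6 levels was not tested.

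Il6 separated the 64 groups into a low set and a high set, by whether the mixture held PAM, LPS or CpGB. The 15 groups with none of these, Ctrl included, had means of 110 to 278 CPM. The 49 groups with at least 1 of them had means of 1111 to 6151 CPM. No library lay between 314 CPM, the highest of 45 in the low set, and 946 CPM, the lowest of 147 in the high set. Il6 was called higher than Ctrl where edgeR's quasi-likelihood test gave an adjusted p (Benjamini-Hochberg over all genes tested) under 0.05 with a log2 fold change of at least 1. By that rule Il6 rose in 3 of 7 single ligands, 16 of 21 pairs and 32 of 35 triplets. Over all genes tested, 8.70% were called higher in the single ligands, 13.7% in the pairs and 15.7% in the triplets. All 49 groups of the high set were called, and so were 2 of the 14 stimulated groups of the low set. Those 2 were Zymosan + cGAMP (220, 314 and 300.0 CPM, log2 fold change 1.10 ± 0.32 (SE), adjusted p = 0.00202 by edgeR) and HMW + Zymosan + cGAMP (273, 289 and 272 CPM, log2 fold change 1.08 ± 0.32, adjusted p = 0.00273 by edgeR). These 2 calls ended in 6 and 7 of the 12 alternative fits. The log2 fold changes were 0.92 and 0.90 with RLE factors, 0.72 and 0.71 with library size alone, and 0.92 and 0.91 with DESeq2. With libraries thinned to the smallest total they were 0.74 and 0.76. Without replicate 2 of every group they were 0.95 and 0.94, and without Ctrl replicate 1 they were 0.97 and 0.95. The second call also ended without Ctrl replicate 2 (0.99). Over the 12 fits the adjusted p ran from 2.22e-05 to 0.150 for the first and from 3.25e-05 to 0.139 for the second. Without Ctrl replicate 3 their log2 fold changes were 1.59 and 1.57, and 56 groups in all were called. Without the fold threshold 53 groups were called. These included SeV + cGAMP (0.95 ± 0.32, adjusted p = 0.0117 by edgeR) and Zymosan + SeV + cGAMP (0.86 ± 0.32, adjusted p = 0.0244 by edgeR).

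**Figure D1:**
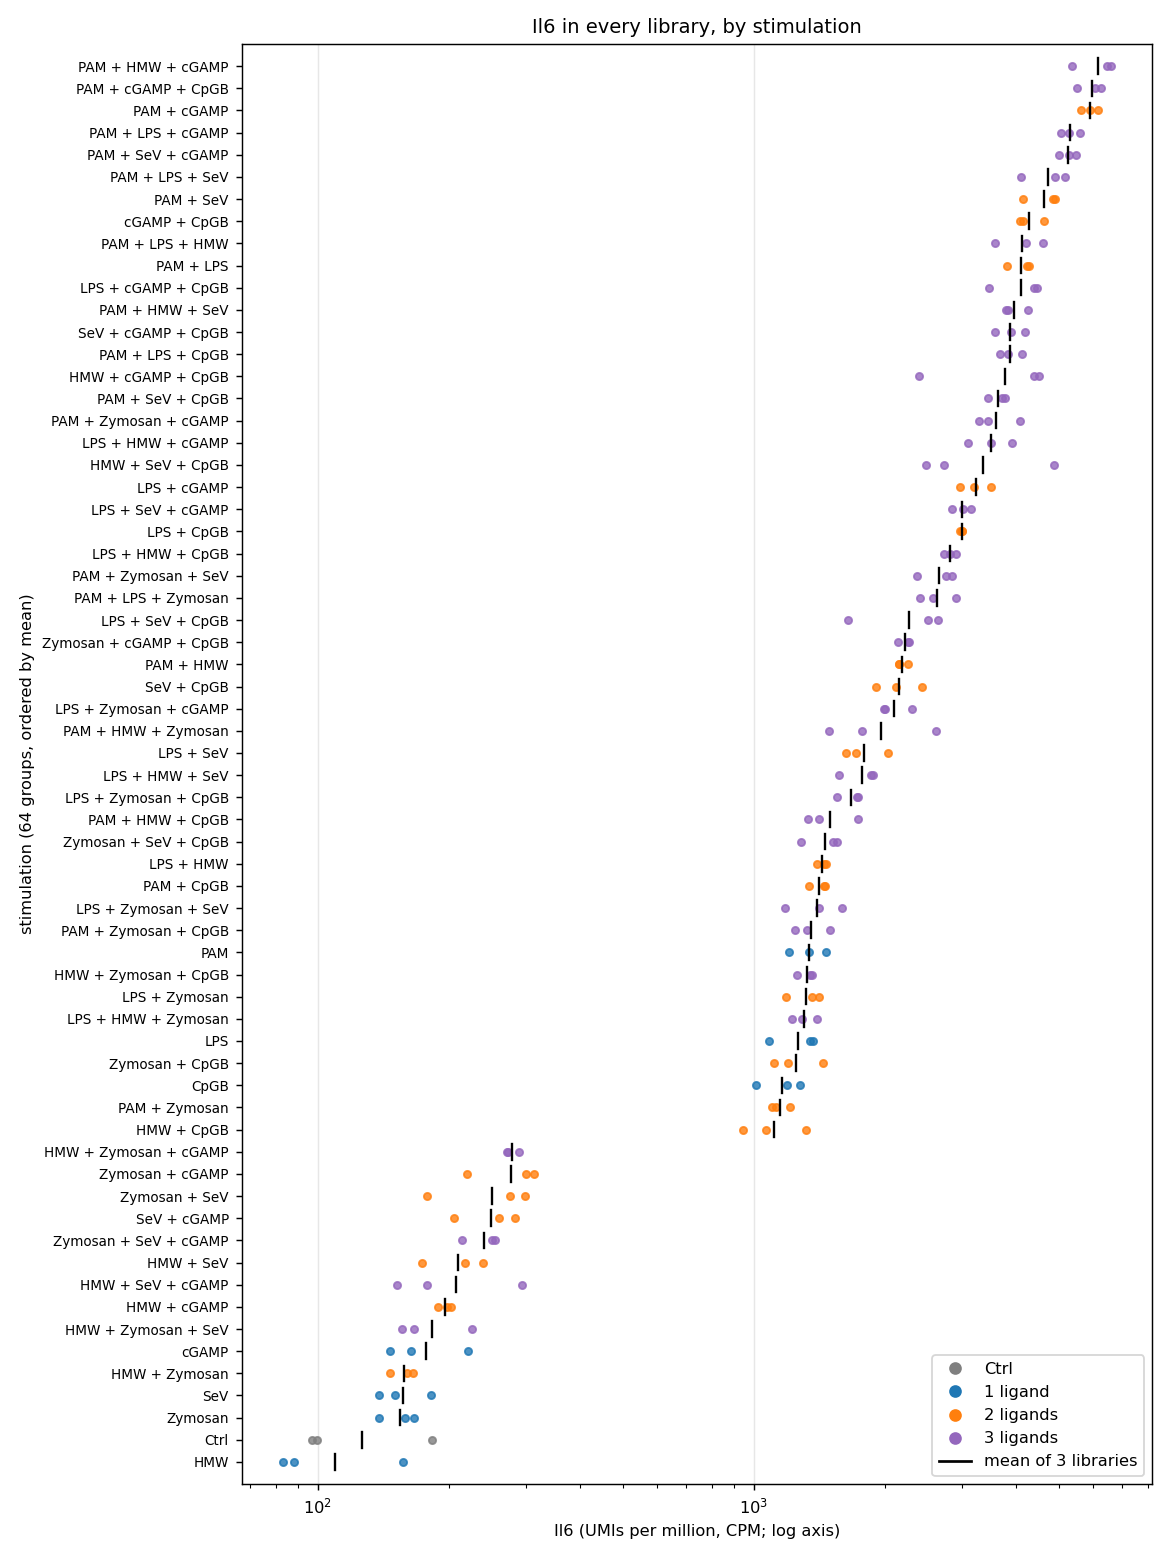
Il6 level in CPM (log axis) in each library, with 1 row per group in order of the group mean. Points are libraries coloured by the number of ligands and black ticks are means of 3 libraries; the 15 lower rows end at 314 CPM and the 49 upper rows start at 946 CPM.

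Within each set the order was gradual. Of the 63 steps between neighbours in the order of means, 60 were between groups whose libraries overlapped, and in none of these 60 did the means differ by more than the larger SD, so these libraries did not resolve the order of such neighbours. The other 3 steps passed both. They were the step from HMW + Zymosan + cGAMP to HMW + CpGB (4.00-fold), the step from LPS + HMW + CpGB to LPS + CpGB (1.06-fold) and the step from PAM + LPS + cGAMP to PAM + cGAMP (1.11-fold). By edgeR, HMW added to LPS + CpGB changed Il6 by -0.09 ± 0.13 on the log2 scale (adjusted p = 0.999). LPS added to PAM + cGAMP changed it by -0.15 ± 0.13 (adjusted p = 0.778 by edgeR). Neither was called, so the 1.06-fold and 1.11-fold steps were not resolved by that test.

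Alone, PAM, LPS and CpGB brought Il6 to about the same level. The Ctrl libraries had 97.0, 99.8 and 182 CPM, from 7 to 19 UMIs of Il6, and Ctrl replicate 3 was the highest of them. PAM gave 1463, 1207 and 1339 CPM, LPS 1370, 1086 and 1342 CPM, and CpGB 1009, 1195 and 1277 CPM. These 3 groups overlapped one another, and each lay above every Ctrl library. Their log2 fold changes over Ctrl were 3.33 ± 0.29, 3.25 ± 0.29 and 3.15 ± 0.30 (SE, n = 3 against 3; adjusted p of 1.12e-29, 8.89e-29 and 1.24e-26 by edgeR).

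The other 4 ligands alone left Il6 within or close to the range of Ctrl. HMW gave 83.2, 157 and 88.3 CPM, Zymosan 138, 166 and 159 CPM, SeV 182, 138 and 150.1 CPM, and cGAMP 147, 164 and 221 CPM. The libraries of all 4 groups overlapped those of Ctrl. By edgeR the log2 fold changes were -0.21 ± 0.35 for HMW (adjusted p = 0.927), 0.24 ± 0.34 for Zymosan (adjusted p = 0.766), 0.22 ± 0.34 for SeV (adjusted p = 0.725) and 0.45 ± 0.34 for cGAMP (adjusted p = 0.354). At 7 to 36 UMIs per library, changes of the size of these errors were not detectable at this depth.

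In pairs, cGAMP and SeV, which alone gave no call, went with much higher Il6 where the partner was PAM. PAM + cGAMP gave 5639, 6145 and 5906 CPM, 4.41 times the mean of PAM alone. PAM + SeV gave 4137, 4848 and 4899 CPM, 3.46 times the mean of PAM alone. With CpGB as partner, cGAMP + CpGB gave 4134, 4086 and 4636 CPM, 3.69 times the mean of CpGB alone. In each of these 3 pairs every library lay above every library of both single ligands.

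3 more pairs passed the same test. PAM + LPS gave 4283, 3809 and 4236 CPM, LPS + cGAMP 3501, 3203 and 2974 CPM, and LPS + CpGB 3007, 2971 and 3009 CPM. None of their libraries overlapped those of the single ligands. A pair was called above both of its single ligands where the larger of the 2 p-values, adjusted over all genes, was under 0.05 and both log2 fold changes were at least 1. Il6 met this in 6 of 21 pairs, against 0.353% of all gene and pair combinations tested. The log2 fold changes over the higher single ligand are given with the adjusted p of this rule, which covers both single ligands. These were 2.15 ± 0.14 for PAM + cGAMP (adjusted p = 1.69e-33), 1.87 ± 0.14 for cGAMP + CpGB (adjusted p = 2.81e-26) and 1.80 ± 0.14 for PAM + SeV (adjusted p = 2.34e-25), all by edgeR. They were 1.62 ± 0.14 for PAM + LPS (adjusted p = 1.44e-21), 1.35 ± 0.14 for LPS + cGAMP (adjusted p = 6.24e-15) and 1.24 ± 0.14 for LPS + CpGB (adjusted p = 1.90e-13), again by edgeR.

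Without the fold threshold 2 further pairs passed, SeV + CpGB and PAM + HMW, which makes 8 of 21 against 0.805% of all combinations. SeV + CpGB gave 2122, 1905 and 2432 CPM against 1160 ± 137 for CpGB (log2 fold change 0.88 ± 0.14, adjusted p over both single ligands = 2.44e-05 by edgeR). PAM + HMW gave 2155, 2156 and 2259 CPM against 1336 ± 128 for PAM (log2 fold change 0.72 ± 0.14, adjusted p over both single ligands = 8.71e-05 by edgeR). Both pairs lay above every library of their single ligands.

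The pair of PAM and CpGB was not called above its single ligands, whereas PAM + LPS and LPS + CpGB were; the difference between these pairs was not tested. PAM + CpGB gave 1336, 1459 and 1448 CPM, which overlapped PAM alone, and its log2 fold change over PAM was 0.09 ± 0.15. PAM + LPS, by the values above, was 3.08 times PAM, and LPS + CpGB was 2.37 times LPS. The remaining pairs with PAM, LPS or CpGB were not called above both of their single ligands. LPS + SeV gave 1793 ± 214 CPM (1.42 times LPS, adjusted p = 0.148 over LPS by edgeR), with every library above those of LPS and SeV. LPS + HMW gave 1437 ± 33.3 CPM (1.14 times LPS) and LPS + Zymosan 1318 ± 118 CPM (1.04 times LPS). Zymosan + CpGB gave 1252 ± 173 CPM and HMW + CpGB 1111 ± 191 CPM, beside 1160 ± 137 CPM for CpGB. PAM + Zymosan was below PAM in mean, at 1126, 1208 and 1104 CPM (log2 difference from PAM -0.22 ± 0.15), and its highest library overlapped the lowest of PAM. The 6 pairs with none of the 3 ligands had means of 157 to 278 CPM.

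**Figure D2:**
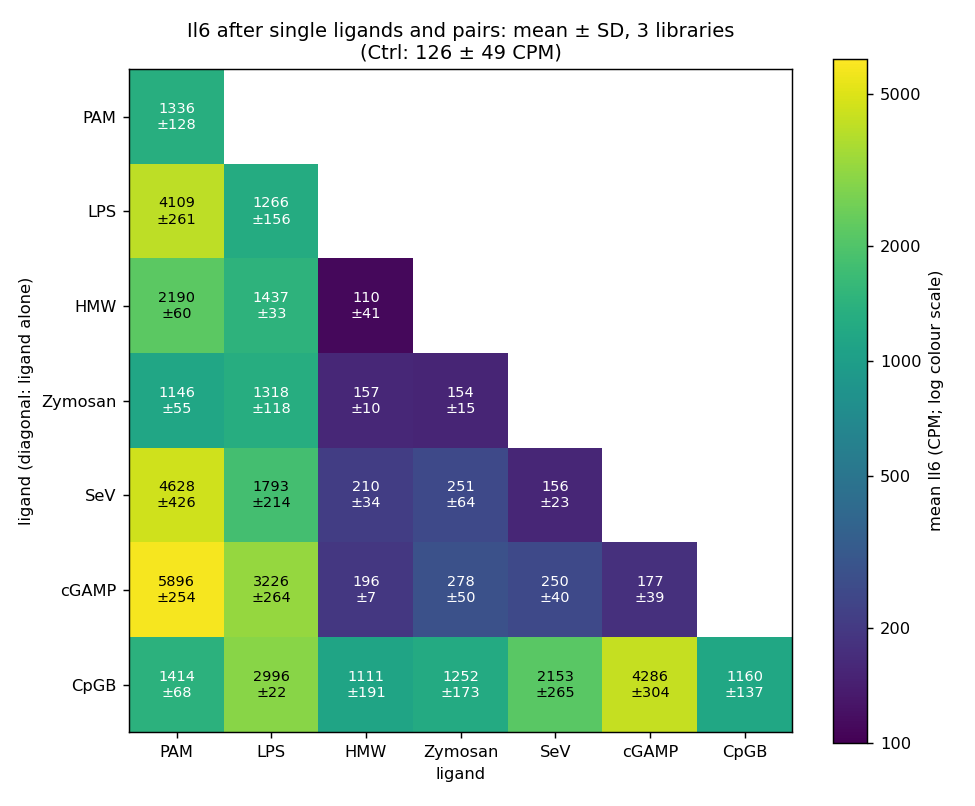
Mean Il6 (CPM) with the SD of 3 libraries after each single ligand (diagonal) and each pair (below the diagonal), coloured on a log scale. The highest cell is PAM + cGAMP at 5896 CPM, and the cells of HMW, Zymosan, SeV and cGAMP with each other stay at or below 278 CPM.

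Whether a pair exceeded its parts depended on the scale. On the linear scale, the excess of a pair is its mean minus both single means plus the Ctrl mean, given here with its SE from the 3 libraries of each group and no test. PAM + cGAMP exceeded the sum by 4510 ± 168 CPM, PAM + SeV by 3262 ± 259 CPM and cGAMP + CpGB by 3074 ± 196 CPM. LPS + cGAMP exceeded it by 1909 ± 181 CPM, PAM + LPS by 1633 ± 193 CPM and LPS + CpGB by 696 ± 124 CPM. PAM + CpGB fell short of the sum, at -956 ± 119 CPM, reaching 0.597 times the level that adding the single effects gives. SeV + CpGB, PAM + HMW and LPS + SeV exceeded it by 963 ± 175, 871 ± 89.6 and 496 ± 156 CPM. In all, 9 pairs lay over the sum by more than 2 SE, 2 lay under it by more than 2 SE (PAM + CpGB, and PAM + Zymosan at -218 ± 85.7 CPM) and 10 lay within 2 SE.

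On the log2 scale an interaction is the departure from the product of the 2 fold changes over Ctrl, called by edgeR at an adjusted p under 0.05. It was negative for the 3 pairs made only of PAM, LPS and CpGB: -3.06 ± 0.33 for PAM + CpGB (adjusted p = 2.08e-18), -1.90 ± 0.33 for LPS + CpGB (adjusted p = 5.36e-08) and -1.63 ± 0.32 for PAM + LPS (adjusted p = 8.05e-06). It was positive for PAM + cGAMP (1.70 ± 0.36, adjusted p = 0.00179), PAM + SeV (1.57 ± 0.37, adjusted p = 0.0123) and cGAMP + CpGB (1.42 ± 0.36, adjusted p = 0.00588). Over all genes, 1.08% of pair interactions were called positive and 3.50% negative. The 3 positive calls rested on Ctrl replicate 3. Without that library the 3 values were 1.21 (adjusted p = 0.297), 1.10 (adjusted p = 0.504) and 0.91 (adjusted p = 0.413) by edgeR, and none was called, while the 3 negative calls held. The fold changes of the pairs over their single ligands do not use Ctrl.

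No triplet raised Il6 above all 3 of its pairs by the fold rule. The 5 highest triplets were PAM + HMW + cGAMP (6473, 5381 and 6598 CPM), PAM + cGAMP + CpGB (6271, 5515 and 6070 CPM), PAM + LPS + cGAMP (5062, 5290 and 5603 CPM), PAM + SeV + cGAMP (5476, 5014 and 5275 CPM) and PAM + LPS + SeV (5177, 4104 and 4897 CPM). The first 4 hold PAM and cGAMP, and their means were 1.04, 1.01, 0.902 and 0.891 times that of PAM + cGAMP. PAM + LPS + SeV was at 1.02 times its highest pair, PAM + SeV. None of these 5 was called different from its highest pair by edgeR (adjusted p of 0.778 or more). In the group with the highest mean (6151 ± 670 CPM), Il6 took 0.550%, 0.461% and 0.539% of all UMIs of its libraries before TMM scaling.

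The count of triplets above all 3 pairs was 0 of 35 by edgeR, against 0.0115% of all gene and triplet combinations, 0 by DESeq2, and 1 at an unadjusted p under 0.05. That triplet was HMW + SeV + CpGB, also the 1 triplet that passed without the fold threshold, against 0.0297% of all combinations (log2 fold change over SeV + CpGB 0.63 ± 0.13, adjusted p over the 3 pairs = 0.00918, and 0.00459 against SeV + CpGB by edgeR). Its libraries were far apart, at 4873, 2481 and 2735 CPM. Without replicate 1 of every group, the highest library of this triplet left out, the log2 fold change over SeV + CpGB was 0.24 (adjusted p = 0.849 by edgeR). Another triplet with a wide spread was HMW + cGAMP + CpGB, at 2388, 4388 and 4519 CPM.

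The 5 lowest triplets comprised the 4 with none of PAM, LPS and CpGB and 1 more. HMW + Zymosan + SeV gave 225, 156 and 166 CPM, HMW + SeV + cGAMP 294, 152 and 178 CPM, and Zymosan + SeV + cGAMP 214, 255 and 251 CPM. With the 3 libraries of HMW + Zymosan + cGAMP given above, these 4 reached at most 294 CPM. LPS + HMW + Zymosan came next at 1395, 1223 and 1291 CPM.

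**Figure D3:**
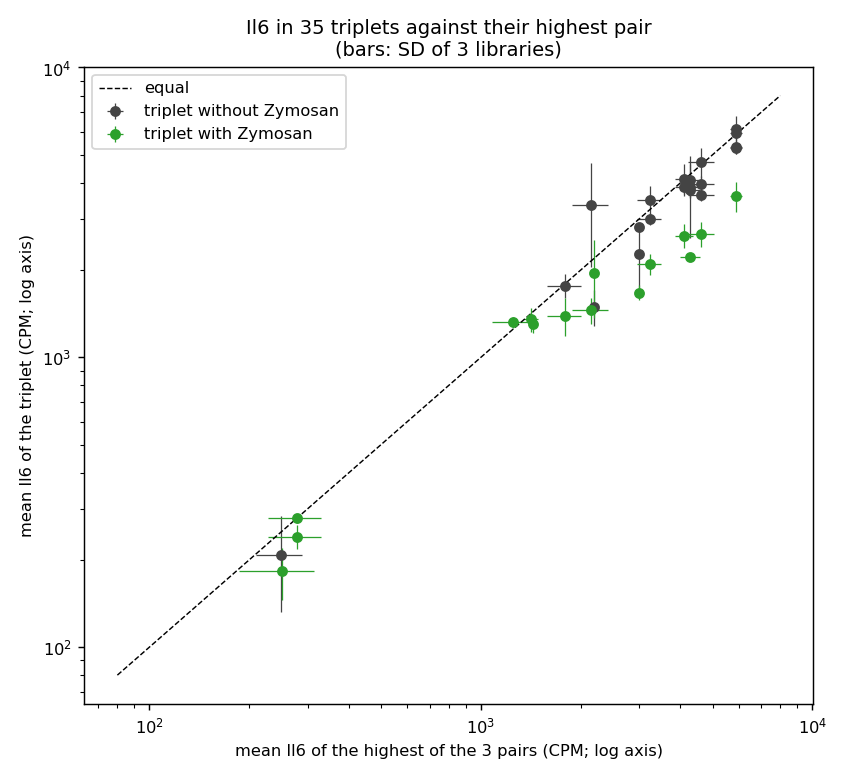
Mean Il6 of each of the 35 triplets against the mean of its highest pair, both in CPM on log axes, with bars for the SD of 3 libraries and a dashed line at equality. Without a fold threshold, 7 of the 15 triplets with Zymosan (green) were called lower than their highest pair; of the 20 without it, PAM + HMW + CpGB (0.682 times its highest pair) was called lower and HMW + SeV + CpGB (1.56 times) higher.

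Zymosan went with lower Il6 on 7 of the 12 pairs of the other ligands that hold PAM, LPS or CpGB. Added to PAM + cGAMP, it took Il6 from 5896 ± 254 to 3598 ± 420 CPM, with libraries at 4075, 3282 and 3438 CPM. Added to PAM + SeV, it took Il6 from 4628 ± 426 to 2660 ± 259 CPM, and added to cGAMP + CpGB from 4286 ± 304 to 2224 ± 67.0 CPM. In these 3 cases no library with Zymosan reached the lowest library without it.

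No addition of any ligand lowered Il6 by 2-fold: of the 22 additions of each of 7 ligands, 0 were called lower by edgeR with the fold threshold and 0 by DESeq2, against 1.65% of all gene and addition combinations, and 11 were lower at an unadjusted p under 0.05. Without the fold threshold 8 were called lower, against 2.65% of all combinations, and 7 of these 8 were additions of Zymosan, against 1.95% of all genes over its 22 backgrounds. The log2 changes were -0.95 ± 0.13 on cGAMP + CpGB (adjusted p = 1.45e-08), -0.84 ± 0.14 on LPS + CpGB (adjusted p = 2.23e-06), -0.80 ± 0.13 on PAM + SeV (adjusted p = 7.8e-07) and -0.71 ± 0.13 on PAM + cGAMP (adjusted p = 1.32e-05), all by edgeR. They were -0.65 ± 0.13 on PAM + LPS (adjusted p = 0.000196), -0.62 ± 0.14 on LPS + cGAMP (adjusted p = 0.00125) and -0.57 ± 0.15 on SeV + CpGB (adjusted p = 0.00542), again by edgeR. These last 3 calls were lost in at least 1 fit that left out a replicate of every group, with adjusted p from 0.0604 to 0.139, while the first 4 were kept in all 3 such fits. The 7 backgrounds were 7 of the 8 pairs that lay above both of their single ligands, and both comparisons use the same libraries of the pair. On the other 5 pairs that hold PAM, LPS or CpGB, Zymosan changed Il6 by -0.36 (LPS + SeV), -0.17 (PAM + HMW), -0.14 (LPS + HMW), -0.07 (PAM + CpGB) and 0.24 (HMW + CpGB), and none was called. On PAM, LPS and CpGB alone, Zymosan changed Il6 by -0.22, 0.06 and 0.10 on the log2 scale, and none was called. The 8th addition called lower was CpGB on PAM + HMW (-0.55 ± 0.14, adjusted p = 0.0437 by edgeR), from 2190 ± 59.7 to 1493 ± 215 CPM, and it was not called in any of the 3 fits that left out a replicate (adjusted p from 0.114 to 0.677).

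Each ligand could be added to 22 backgrounds: Ctrl, the 6 other single ligands and the 15 pairs of these. PAM was called higher on 14 of its 22 backgrounds, against 2.68% of all genes, LPS on 16, against 6.09%, and CpGB on 12, against 2.65%. Each of the 3 was called on all 11 backgrounds that lack the other two. On those 11 the log2 fold changes ran from 2.87 to 5.03 for PAM, from 2.59 to 4.15 for LPS and from 2.66 to 4.57 for CpGB, and for each of the 3 the largest was on cGAMP. On the 11 backgrounds that already held another of the 3, PAM was called on 3, LPS on 5 and CpGB on 1.

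PAM and CpGB did not raise Il6 on top of each other by the fold rule in any background. PAM was called on none of 6 backgrounds that hold CpGB (median log2 change 0.40, from 0.10 to 0.76, with libraries apart in 5 of the 6, a share not counted over all genes), and CpGB on none of 6 that hold PAM (median -0.04, from -0.55 to 0.24). Without the fold threshold PAM was called higher on 18 of its 22 backgrounds, against 4.21% of all genes, and on 2 of the 6 with CpGB, SeV + CpGB (0.76 ± 0.13, adjusted p = 3.34e-05 by edgeR) and cGAMP + CpGB (0.47 ± 0.13, adjusted p = 0.0477 by edgeR); CpGB was called higher on 0 of the 6 with PAM. LPS was called on 3 of 6 backgrounds with PAM and on 3 of 6 with CpGB, up to 1.62 on PAM and 1.45 on PAM + CpGB. On PAM + cGAMP and PAM + SeV, where Il6 was already high, LPS changed it by -0.15 and 0.03.

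cGAMP was called higher on 8 of 22 backgrounds, against 5.65% of all genes, and all 8 hold PAM, LPS or CpGB. Over the 15 backgrounds with at least 1 of these 3 ligands the change was positive in 15, with a median of 1.28 and a range of 0.18 to 2.15 on the log2 scale, and no library with cGAMP overlapped its background in any of the 15. How often libraries lay apart over all genes was not counted. Over the 7 backgrounds with none of the 3 it ran from -0.04 to 0.85 with a median of 0.72, and none was called. Without the fold threshold it was called on 16 of 22, against 7.81% of all genes, 13 of the 15 and 3 of the 7. The largest changes were 2.15 on PAM, 2.07 on PAM + CpGB and 1.87 on CpGB. Of the 6 backgrounds that hold SeV none was called with the fold threshold, and 2 were called without it. Those 2 were SeV + CpGB (0.85) and LPS + SeV (0.75), and the value on PAM + SeV was 0.18. The pair interaction of SeV + cGAMP was 0.28 ± 0.42 (adjusted p = 0.801 by edgeR), and those of SeV and cGAMP with another ligand are among the three-way interactions below.

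SeV was called higher on 4 of 22 backgrounds, against 2.93% of all genes: PAM (1.80), HMW + CpGB (1.57), PAM + CpGB (1.36) and PAM + Zymosan (1.22). None of the 6 backgrounds with LPS was called (from -0.41 to 0.50), and none of the 6 with cGAMP (from -0.24 to 0.50). Without the fold threshold it was called on 7, against 4.09% of all genes.

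HMW and Zymosan were called higher on 0 of 22 backgrounds each, against 0.443% and 2.51% of all genes. At an unadjusted p under 0.05, each was higher on 3. Without the fold threshold HMW was called on 3 of 22, against 0.656% of all genes: PAM + Zymosan (0.77 ± 0.14, adjusted p = 8.96e-06 by edgeR), PAM (0.72 ± 0.14, adjusted p = 4.36e-05 by edgeR) and SeV + CpGB (0.63, given above). Its median change over the 22 backgrounds was 0.01. PAM + HMW + Zymosan had a wide spread, with libraries at 2617, 1487 and 1767 CPM.

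**Figure D4:**
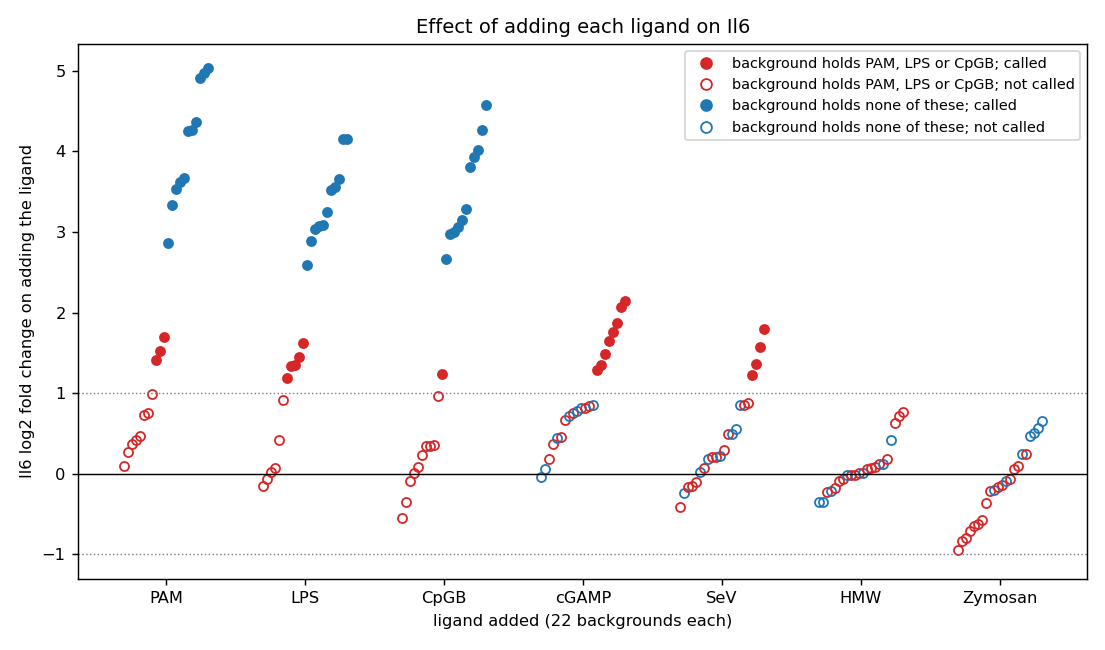
Log2 fold change of Il6 on adding each ligand to its 22 backgrounds; red points are backgrounds that hold PAM, LPS or CpGB, blue points are those that hold none of these, and filled points were called higher (adjusted p under 0.05 and log2 fold change of at least 1). Dotted lines mark 1 and -1. All blue points of PAM, LPS and CpGB are filled, and the filled points of cGAMP and SeV are all red.

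Three-way interactions on the log2 scale, the part of a triplet not given by its single ligands and pairs, were below 0 in 32 of 35 triplets. All 35 subtract the same Ctrl libraries and share single ligands and pairs, so their signs are not separate observations. They were called by edgeR as negative in 6, against 0.130% of all gene and triplet combinations, and positive in 1, against 0.803%. The positive one was PAM + LPS + CpGB (1.73 ± 0.38, adjusted p = 0.000291), whose libraries had 3833, 3677 and 4121 CPM, overlapping those of PAM + LPS (3809 to 4283). The negative ones were PAM + LPS + cGAMP (-2.67 ± 0.41, adjusted p = 8.44e-06), LPS + cGAMP + CpGB (-2.31 ± 0.41, adjusted p = 2.57e-05), PAM + SeV + cGAMP (-2.24 ± 0.46, adjusted p = 0.0039), PAM + LPS + SeV (-1.87 ± 0.42, adjusted p = 0.00842), LPS + SeV + CpGB (-1.55 ± 0.42, adjusted p = 0.0143) and PAM + cGAMP + CpGB (-1.50 ± 0.41, adjusted p = 0.0413). Each of the 6 holds cGAMP or SeV, and each holds at least 1 pair that was itself above both single ligands. These values also contain Ctrl: without Ctrl replicate 3, only PAM + LPS + cGAMP was called negative (-2.13, adjusted p = 0.0316 by edgeR), and the positive call was kept. Leaving out replicate 2 or replicate 3 of every group left 3 and 2 negative calls.

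The genes most like Il6 were taken as the 10 with the highest Pearson correlation to it over the 64 group means of log2 CPM, among 4500 other genes whose mean over all libraries reached 20 CPM. They were Il12a (r = 0.958), Nfkb1 (0.953), Nfkb2 (0.937), Il1a (0.920), Ptgs2 (0.914), Traf1 (0.913), Ptprj (0.910), Ccl3 (0.908), Il1b (0.904) and Fpr2 (0.903). Il12a encodes the p35 chain of interleukin-12, Nfkb1 and Nfkb2 encode NF-kB subunits, Il1a and Il1b are interleukin-1 cytokines, Ptgs2 is the inducible cyclooxygenase, and Ccl3 is a chemokine. The group means share libraries and their depth with Il6, and they fall into 2 sets, so r was also taken within each. Over the 49 groups with PAM, LPS or CpGB it was 0.813 for Il12a, 0.862 for Nfkb1, 0.847 for Ccl3 and 0.726 for Ptgs2, and 0.358 for Il1b. Over the 15 others it was 0.640 for Il12a, 0.800 for Nfkb1, 0.878 for Ccl3, 0.529 for Ptgs2 and 0.317 for Il1b.

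These genes differed in how they stood when cGAMP was added to PAM. Ptgs2 went from 189 ± 29.7 CPM with PAM to 1069 ± 155 CPM with PAM + cGAMP, and Il1a from 2329 ± 180 to 5491 ± 108 CPM. Il12a went from 137 ± 3.74 to 326 ± 58.9 CPM, and Ccl3 from 4624 ± 253 to 15042 ± 860 CPM. Fpr2, at 847 ± 78.6 and 878 ± 79.5 CPM, differed by less than its spread. Of the 10 genes, 9 were matched to promoters in the RefSeq table, and Nfkb1 was not. The NF-kB motif was found in 1 of these 9 (Nfkb2), the AP-1 motif in 2 (Il1a and Nfkb2), the C/EBP motif in 7, the ISRE motif in 1 (Ccl3) and the CRE motif in 0. A gene counted if any of its promoter windows held the motif. The shares given earlier are per window, so these counts cannot be set against them, and enrichment was not tested.

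3 other inflammatory cytokines, Tnf, Il12b and Il1b, were set beside Il6. With PAM, Tnf was at 8099 ± 526 CPM and with PAM + cGAMP at 24197 ± 1898 CPM (log2 fold change 1.58 ± 0.15, adjusted p = 6.25e-19 by edgeR), and it was called higher with Zymosan, SeV and cGAMP alone (2.65, 1.06 and 2.04), where Il6 was not called. Il1b was at 8130 ± 506 CPM with PAM and 7224 ± 232 CPM with PAM + cGAMP (log2 fold change -0.17 ± 0.11, adjusted p = 0.282 by edgeR), and with Zymosan alone it was called higher (1.53, adjusted p = 1.02e-11 by edgeR). Il12b, the gene of the p40 chain of interleukin-12, was at 28.6 ± 3.90 CPM with PAM and 126 ± 58.5 CPM with PAM + cGAMP (log2 fold change 2.08 ± 0.69, adjusted p = 0.00658 by edgeR). It was also called higher with CpGB alone (3.82 ± 1.33, adjusted p = 0.000184 by edgeR) and when cGAMP was added to CpGB (1.08 ± 0.36, adjusted p = 0.0256 by edgeR). In the latter contrast Tnf was called higher too (1.79 ± 0.15, adjusted p = 7.96e-22 by edgeR). Il1b changed there by -0.39 ± 0.12 (adjusted p = 0.0119 by edgeR), under the fold threshold.

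Of the other cytokines of the IL-6 family, 2 of 7 passed the filter, Il11 and Il27. Neither was called in any single ligand, where 0.953% (HMW) to 14.6% (LPS) of all genes were called higher and 0.0212% to 9.60% lower. Il27, whose product pairs with Ebi3 to form interleukin-27, rose when cGAMP was added to PAM (from 1.68 ± 2.90 to 53.4 ± 8.77 CPM, log2 fold change 4.39, adjusted p = 3.42e-05 by edgeR) and to CpGB (log2 fold change 2.40, adjusted p = 0.000685 by edgeR), at low levels throughout; 13.3% and 5.30% of all genes were called higher in these 2 contrasts. The receptor genes Il6ra and Il6st did not pass the filter.

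The 6 tested genes of IL-6 signalling were Jak1, Jak2, Tyk2, Stat3, Socs3 and Ptpn11. With PAM, 2 of 6 were called higher (Jak2 and Socs3), against 8.01% of all genes, with a median log2 change of 0.49 beside 0.03 over all genes. With LPS 4 of 6 were called higher (Jak1, Jak2, Stat3 and Socs3), against 14.6%, with a median of 1.23 beside -0.06. With CpGB 2 of 6 were (Jak2 and Socs3), against 10.8%, with a median of 0.76 beside -0.03. Socs3 was at 52.9 ± 35.2 CPM in Ctrl and at 419 ± 41.9 CPM after PAM, 329 ± 41.9 CPM after LPS and 306 ± 50.4 CPM after CpGB. With SeV 3 of 6 were called higher (Jak1, Jak2 and Stat3), against 10.5%, with cGAMP 2 of 6 (Jak1 and Jak2), against 11.7%, with Zymosan 1 of 6 (Jak1), against 4.43%, and with HMW 0 of 6, against 0.953% of all genes. The fold changes of Socs3 with Zymosan, SeV and cGAMP were 0.75, 0.30 and 0.57, and none was called. None of these 6 genes was called lower with any single ligand, where 0.0212% to 9.60% of all genes were. When cGAMP was added to PAM, 1 of the 6 was called higher, against 13.3% of all genes, namely Stat3 (1.44 ± 0.29, adjusted p = 6.7e-06 by edgeR), and Jak2 changed by 0.49 (adjusted p = 0.0203 by edgeR), under the fold threshold. When cGAMP was added to CpGB, 0 of the 6 were called, against 5.30% higher and 2.48% lower of all genes.

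Of 17 genes that regulate Il6 transcription, all were tested. With PAM, 6 were called higher and 3 lower, against 8.01% and 5.89% of all genes. With LPS 6 were called higher and 3 lower, against 14.6% and 9.60%, and with CpGB 5 and 3, against 10.8% and 6.27%. The median log2 changes over the 17 genes were 0.67, 0.66 and 0.81, beside 0.03, -0.06 and -0.03 over all genes. Called higher in all 3 were Nfkb1, Nfkb2, Nfkbiz, Nfkbia, which encodes an NF-kB inhibitor, and Cebpd, a C/EBP factor. Rela, Rel, Relb and Bcl3, also of the NF-kB system, were called with none of the 3. Called lower in all 3 were Nfkbid, another NF-kB regulator, and Fos, an AP-1 subunit. The other calls were Cebpb higher and Atf3 lower with PAM (1.07 and -1.44), Irf1 higher and Jun lower with LPS (1.91 and -2.74), and Jun lower with CpGB (-2.02). Nfkbiz, the coactivator, was at 40.5 ± 13.6 CPM in Ctrl and at 324 ± 45.4 CPM after PAM, 170 ± 39.0 CPM after LPS and 502 ± 86.0 CPM after CpGB. With the other 4 ligands the counts were near or below the shares of all genes. With SeV 1 of 17 was called higher (Irf1) and 0 lower, against 10.5% and 5.13% of all genes, and with cGAMP 2 higher (Nfkbia and Irf1) and 1 lower (Nfkbid), against 11.7% and 5.91%. With Zymosan 1 was called higher (Cebpb) and 0 lower, against 4.43% and 1.82%, and with HMW 0 in either direction, against 0.953% and 0.0212%.

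When cGAMP was added to PAM, 3 of the 17 regulators were called higher (Irf1, Atf3 and Irf5) and 2 lower (Bcl3 and Cebpd), against 13.3% and 6.97% of all genes, with a median of 0.39 beside -0.07 over all genes. Irf1, an interferon-inducible factor, went from 93.3 ± 17.1 to 568 ± 101 CPM. Nfkb1 changed by 0.39 on the log2 scale (adjusted p = 0.0277 by edgeR, under the fold threshold), and Nfkb2 and Nfkbiz, by 0.38 and 0.25, were not called. On CpGB, 2 were called higher (Irf1 and Jun), against 5.30% of all genes, and 0 lower. Nfkb1 changed by 0.56 there (adjusted p = 0.00187 by edgeR), again under the fold threshold.

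Among 9 genes that act on the stability of Il6 mRNA, 2 were called higher and 1 lower with PAM, 2 and 2 with LPS, 1 and 1 with CpGB, 1 and 1 with SeV, 1 and 0 with cGAMP and 0 and 0 with Zymosan and HMW, beside the shares of all genes given above. Zc3h12a (Regnase-1) was called higher with PAM (2.33), LPS (1.55) and CpGB (1.94). Zfp36l2 was called lower with the same 3 ligands (-1.93, -2.43 and -2.06) and with SeV (-1.30), and higher when cGAMP was added to PAM (1.61) and to CpGB (1.36). Zc3h12c was called higher with PAM (3.08) and lower when cGAMP was added to PAM (-1.51), and Zfp36l1 was called lower with LPS (-2.11). Arid5a was called with LPS (3.40), SeV (3.97) and cGAMP (4.01), and its change with PAM was -0.05. When cGAMP was added to PAM, Arid5a rose from 7.74 ± 8.40 to 134 ± 9.46 CPM (log2 fold change 4.02, adjusted p = 1.65e-10 by edgeR), and Zfp36, the gene of the decay factor tristetraprolin, from 282 ± 31.1 to 865 ± 130 CPM. On CpGB, Arid5a rose by 2.10. In all, 3 of the 9 were called higher and 1 lower when cGAMP was added to PAM, against 13.3% and 6.97% of all genes, and 2 higher and 0 lower when it was added to CpGB, against 5.30% and 2.48%.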

How the data were processed

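Il6 was chosen as the gene to describe, and the gene lists were drawn up, with earlier results of these data known. The authors deposited 1 table of UMI counts per gene for all 192 libraries, and BWA 0.7.15 and the build mm10 are named in the submitters' processing notes; the counting settings are not given in the sources used here. Samples were grouped by the ligands in the labels. Counts were scaled by TMM and fitted in 1 model with 64 groups by edgeR's quasi-likelihood method (edgeR 4.0.16, R 4.3.3), after filterByExpr by group left 4720 genes with 95.7% of the UMIs; p-values were adjusted by Benjamini-Hochberg over all genes within each contrast, and the script was tested on simulated data. Groups, additions and pairs needed an adjusted p under 0.05 and a log2 fold change of at least 1, interactions only the p. Levels are CPM, and correlations used log2 CPM with a prior count of 2. The text names Il6 in Ctrl, the single ligands, the pairs, the 5 highest and 5 lowest triplets and any triplet outside all of its pairs, the 10 genes most like Il6, and members of the lists called in the contrasts with a single ligand or with cGAMP added to PAM or CpGB; other triplets were picked after their values were seen. Alternatives were RLE factors, library size alone, no filter, libraries thinned to 46564 UMIs, DESeq2 1.42.0, a replicate block and leaving out libraries. Deviations of same-numbered libraries from their group means were hardly correlated (mean correlation 0.018), so replicate numbers were not treated as pairs. This does not show that they shared no step of processing. In many groups replicate 1 held the fewest UMIs, as in Ctrl (61823, 68941 and 89530 UMIs in replicates 1 to 3). Promoter windows came from RefSeq (GRCm38.p6) and gene positions from GENCODE M21.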

Additional observations from a re-analysis of the deposited data

How the results depend on the processing

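The alternatives were RLE factors, library size alone, no filter on low counts, libraries thinned to the smallest total, DESeq2, a replicate block and leaving out libraries. In each of these, 3 pair interactions were negative, and the groups called higher than Ctrl numbered 49 to 56. In each but the 3 fits without a Ctrl library, where these were not counted, 6 pairs lay above both single ligands, no triplet was called above all of its pairs and no addition was called lower by 2-fold. What same-numbered libraries share is not said in the labels. With the replicate block, the groups called higher than Ctrl (51) and the additions called higher (54) were as many as without it. So were the pair interactions (3 positive, 3 negative) and the three-way interactions (6 negative, 1 positive). With library size alone and with DESeq2 there were 4 positive pair interactions, and in thinned libraries 2; DESeq2 gave 8 negative three-way interactions, the fit with no filter 5 and thinned libraries 4. Dropping the fold threshold gave 1 triplet above all 3 pairs, 8 additions called lower and 3 additions of HMW, 7 of SeV and 16 of cGAMP called higher. Leaving out 1 replicate number gave 0 to 3 positive pair interactions, 1 to 6 negative three-way interactions, counting the fits without a Ctrl library that were added after seeing the data, and 0 to 1 called additions of HMW. Ctrl, with 7 to 19 UMIs of Il6 per library, enters every interaction. None of the values that turned their sign was called, and the cause was not tested. With library size alone they were Zymosan + CpGB over CpGB (-0.0096), LPS + Zymosan over LPS (-0.060) and HMW + Zymosan over Zymosan (-0.042). In thinned libraries they were cGAMP over Ctrl (-0.27), PAM + cGAMP + CpGB over PAM + cGAMP (-0.11), PAM + CpGB over PAM (-0.00079), and the same 3 pairs with Zymosan (-0.13, -0.12 and -0.65). With 1 replicate left out, the ranges were -0.71 to 0.40 for HMW over Ctrl, -0.093 to 0.15 for LPS + Zymosan over LPS, -0.20 to 0.042 for HMW + CpGB over CpGB, -0.0054 to 0.18 for PAM + HMW + cGAMP and -0.038 to 0.098 for PAM + cGAMP + CpGB over PAM + cGAMP, and -0.14 to 0.11 for PAM + LPS + SeV over PAM + SeV. The linear excess with library size alone was 3721 CPM for PAM + cGAMP, 2778 CPM for PAM + SeV, 2715 CPM for cGAMP + CpGB and 1131 CPM for PAM + LPS. By Spearman's rho, 6 of the 10 genes most like Il6 were among the 10 highest.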
